A study of Mus musculus with 25 samples.

Results

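The 51 genes described here encode the extracellular and feedback parts of the Wnt pathway: 19 ligands, 12 receptors, 11 antagonists, 3 transcriptional effectors and 6 feedback and target genes. They were chosen by symbol, not by their values: every symbol of Wnt, Fzd, Sfrp or Dkk followed by a digit, with Wif1, Notum, Apcdd1, Lrp5, Lrp6, Ctnnb1, Lef1, Tcf7, Axin2, Nkd1, Nkd2, Rnf43, Znrf3 and Sp5. All 51 were listed in both deposited expression tables, among 24015 symbols in each. The first table holds basal cell carcinomas of C57BL6 mice whose genotype was Ptch+/- (1 copy of the Hedgehog receptor lost) with K14 Cre-ER and p53 fl/fl, that is, an inducible Cre recombinase under a keratin promoter of the basal epidermis and floxed p53 alleles. These mice were given a Smo inhibitor by mouth, and the labels call 4 tumours sensitive and 4 resistant. Every tumour library therefore comes from the same genotype and drug class, and none analysed here was untreated or normal tissue. The second table holds ASZ001, a mouse basal cell carcinoma cell line labelled resistant, with 3 libraries each of vehicle, CCG-1423 (an inhibitor of the MRTF and SRF transcription pathway) and vismodegib (a Smo inhibitor). ASZ001 is 1 line, so its libraries carry no spread between lines. The sources used here give no doses, treatment times or animal ages. Nor do they say whether libraries stem from separate animals or cultures, so a p-value reflects the spread among these libraries alone, which may be technical. Of the 25 samples of the series, 17 are RNA libraries, and the 8 exome samples were not analysed here.

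Wnt ligands are secreted lipid-modified glycoproteins that bind a Frizzled receptor together with the co-receptor Lrp5 or Lrp6. This binding stops a cytoplasmic complex built on axin from destroying beta-catenin, the product of Ctnnb1, which then enters the nucleus and switches on genes with the DNA-binding proteins Lef1 and Tcf7. Secreted antagonists catch the ligands or block the co-receptor, and several targets feed back on the pathway. In skin the pathway is known for starting hair follicles and their growth phase, and basal cell carcinomas, which are driven by Hedgehog signalling, resemble early follicle buds.

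Lef1 and Tcf7 bind the core letters CTTTGA, read TCAAAG on the other strand, and SRF binds the CArG box, so the promoters of genes the results turn on are shown with these matches in capitals. The windows come from RefSeq on GRCm38.p6, run from 250 bases before to 50 after a gene start, and are written 5′ to 3′ on the gene's strand. Of the 51 genes, 34 had a window, 43 windows in all. CTTTGA on either strand was found in 6 of the 43 windows, 14.0%, beside 16.0% of all 32851 windows of this length, and a CArG box in 2 of them, beside 1.63% of all. Axin2, at chr11:108920099-108920398 on the plus strand, held neither. Lef1 held a CArG box in the window chr3:131112541-131112840 and TCAAAG at 2 places in the window chr3:131156044-131156343, both on the plus strand. These are the Lef1 windows shown, in this order. Wnt11 held TCAAAG in chr7:98834862-98835161 on the plus strand, and Wnt5b held CTTTGA in chr6:119449337-119449636 on the minus strand. Tcf7 held the other CArG box, in chr11:52282546-52282845 on the minus strand, a window not shown. The other windows of Lef1, Wnt11, Wnt5b and Tcf7 held neither and are not shown. Nor was a match found for Dkk2, Wif1, Nkd1, Nkd2, Wnt4, Wnt7a, Ctnnb1 or Fzd7, whose windows are not shown either. For Lef1 and Tcf7 only CTTTGA and TCAAAG were searched, so near variants were not counted, such as CTTTGT in the Dkk2 window. A match describes letters in these windows and no binding was measured.
Axin2: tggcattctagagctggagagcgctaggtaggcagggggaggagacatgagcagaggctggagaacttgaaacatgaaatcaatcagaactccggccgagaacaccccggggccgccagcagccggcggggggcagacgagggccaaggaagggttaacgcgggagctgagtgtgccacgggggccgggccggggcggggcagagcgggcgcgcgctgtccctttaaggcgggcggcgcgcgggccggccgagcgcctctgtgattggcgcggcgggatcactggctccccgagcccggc
Lef1, first window: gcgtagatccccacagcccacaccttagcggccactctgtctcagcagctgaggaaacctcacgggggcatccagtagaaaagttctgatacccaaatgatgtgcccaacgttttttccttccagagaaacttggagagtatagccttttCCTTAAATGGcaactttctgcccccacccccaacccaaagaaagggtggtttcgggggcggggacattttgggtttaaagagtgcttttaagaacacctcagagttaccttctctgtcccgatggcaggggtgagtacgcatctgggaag
Lef1, second window: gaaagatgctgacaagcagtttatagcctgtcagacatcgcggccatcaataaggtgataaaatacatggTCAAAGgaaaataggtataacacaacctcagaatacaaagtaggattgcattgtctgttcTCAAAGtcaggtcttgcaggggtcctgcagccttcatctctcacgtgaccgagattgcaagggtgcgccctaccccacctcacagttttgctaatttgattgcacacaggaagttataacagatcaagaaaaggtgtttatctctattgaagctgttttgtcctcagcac
Wnt11: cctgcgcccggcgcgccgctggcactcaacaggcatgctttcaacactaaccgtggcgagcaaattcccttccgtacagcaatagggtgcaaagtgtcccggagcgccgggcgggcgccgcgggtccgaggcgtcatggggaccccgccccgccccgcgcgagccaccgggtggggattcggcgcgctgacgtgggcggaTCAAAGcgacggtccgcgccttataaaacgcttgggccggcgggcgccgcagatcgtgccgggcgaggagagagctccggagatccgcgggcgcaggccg
Wnt5b: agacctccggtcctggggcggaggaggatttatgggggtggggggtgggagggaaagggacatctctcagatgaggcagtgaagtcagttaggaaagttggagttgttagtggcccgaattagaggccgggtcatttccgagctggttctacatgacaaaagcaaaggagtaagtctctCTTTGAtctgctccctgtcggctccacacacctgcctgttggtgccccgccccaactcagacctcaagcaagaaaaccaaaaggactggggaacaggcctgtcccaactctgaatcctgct

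Values below are normalized counts, the authors' whole read counts divided by 1 size factor per library, and the tables were normalized separately, so levels are compared only within a table. No gene lengths were used, so levels are not compared between genes. Reads at genes numbered 8111252 to 14161398 in the sensitive tumours, 17537094 to 20014426 in the resistant tumours and 30455530 to 44017757 in the cell libraries. A count of 0 allows up to 3 reads, or 2.09 to 4.97 normalized counts in a tumour and 2.45 to 3.40 in a cell library, for counting error only. One tumour went against its label: the library labelled sensitive 4 correlated across genes with the resistant tumours at a mean of 0.952 and with the other sensitive tumours at 0.828. Xist, the RNA that silences 1 X chromosome in female cells, was at 61076 to 80520.5 in the resistant tumours and 60770.5 in sensitive tumour 4, but at 1252 to 2939 in the other 3. Kdm5d, a gene of the Y chromosome, was at 608 to 881 in those 3 and at 0 in all others. The members that passed without sensitive tumour 4 are therefore given with and without it, and the other members from the fit without it. In that fit the labelled groups and the X- and Y-linked RNA change together and cannot be told apart.

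In bulk tumours fewer cells of a type and less RNA per cell cannot be told apart, and markers of several cell types moved with the groups. The summed level of 8 basal keratinocyte markers was 159349 to 230477 over sensitive tumours 1 to 3, 90013 for sensitive tumour 4 and 37777 to 96403 over the resistant tumours, and 5 of the 8 fell in the fit without sensitive tumour 4. For 6 hair follicle stem and progenitor markers, which include the Wnt pathway genes Lgr5 and Tcf7l1, the sums were 15589.8 to 17102, then 7619 and then 6616 to 10831, with 4 lower and 1 higher. Gli1, a target and effector of Hedgehog signalling, was at 532 to 649, then 1976 and then 1456 to 3541, and the receptor gene Ptch1 at 165 to 548, then 3138 and then 1166 to 3392. The 6 dermal papilla markers summed to 878 to 1427, 4370.5 and 3197 to 9644, with 3 of 5 tested higher. Most of this sum was Inhba, at 666 to 1336, then 3545 and then 2318 to 9228. Inhba was also at 2071 to 2235 in the ASZ001 cells with vehicle, so the sum need not reflect dermal papilla cells. The 4 neutrophil markers summed to 626 to 1037, 15784 and 5716 to 8737, and all 4 rose in the same fit. Fibroblast markers overlapped, at 64299 to 136005, 94779 and 77400 to 117394, with 2 of 6 lower. No gene of the lists named here was at 0 in every tumour. In the fit of all 8 tumours 0 genes of these lists passed. The part of these shifts in the Wnt pathway results was not tested.

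With the groups as labelled, none of the Wnt pathway genes passed the test between resistant and sensitive tumours. Of the 37 tested, 0 passed, beside 0.113% of all 15076 tested genes, and their adjusted p-values ran from 0.127 to 0.93 with limma. At an unadjusted p under 0.05 there were 9 of the 37 and 3789 of all genes, edgeR called 0, and DESeq2 called 7, or 18.9%, beside 10.8% of all genes. The 7 were Dkk2, Nkd1, Wnt5b, Axin2 and Nkd2, all lower in resistant tumours, and Wif1 and Wnt5a, both higher. Of the 37, 0 had groups that did not overlap, beside 7.9% of all genes. Wnt16, below the test's floor, did not overlap, at 8.28 to 12.7 in the sensitive and 2.96 to 7.93 in the resistant tumours. Sensitive tumour 4 lay within the range of the resistant tumours for 28 of the 37 and within that of sensitive tumours 1 to 3 for 3. The share over all genes was not computed. Since this library resembled the resistant tumours across all genes, the count sets no member apart.

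Without sensitive tumour 4, 3 of 5 tested feedback genes and 4 of 9 tested antagonists fell in resistant tumours. The antagonist Wif1 rose, and the ligands went both ways. In that fit 16 of 38 tested members passed, 4 higher and 12 lower, which is 42.1% beside 40.0% of all 15479 tested genes, a share near the background. The 4 higher, beside 20.6% of all genes, were Wif1, Wnt5a, Wnt7b and Fzd4, and the 12 lower, beside 19.4%, were Dkk2, Dkk3, Sfrp1, Apcdd1, Lef1, Wnt5b, Wnt10b, Wnt11, Fzd3, Nkd1, Nkd2 and Axin2. At least 2-fold changes were found in 15, beside 24.7% of all genes, and groups that did not overlap in 15, beside 47.6%. The median log2 fold change was -0.35 over the 38 and 0.02 over all genes. Of the 16, sensitive tumour 4 lay within the resistant range for 14, within that of sensitive tumours 1 to 3 for 0, and nearer to the resistant mean for 16. These counts lend the calls no support. The 16 were picked by their difference from sensitive tumours 1 to 3, and sensitive tumour 4 resembled the resistant tumours across all genes. Leaving out any 1 further tumour kept 9 of the calls: Axin2, Dkk2, Dkk3, Fzd3, Nkd1, Nkd2, Wif1, Wnt5a and Wnt5b. Below, a log2 fold change is resistant over sensitive, given ± its SE from the fit without sensitive tumour 4. P-values are limma's, adjusted over all tested genes of that fit. Sensitive tumour 4 was left out because of its expression. The SEs and p-values of that fit do not allow for this choice and may be too small.

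**Figure D1:**
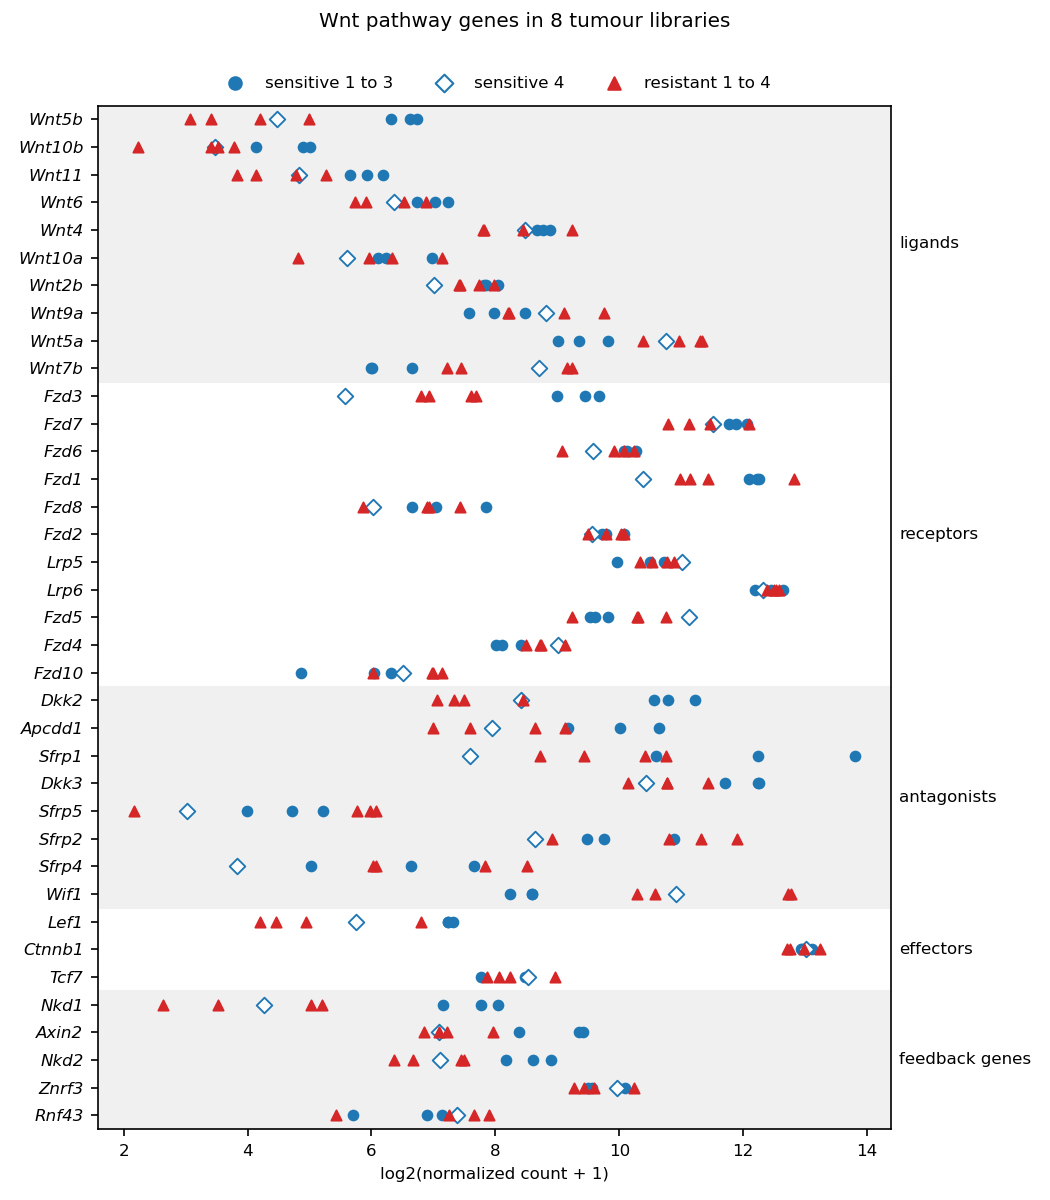
Normalized counts of the 37 tested Wnt pathway genes in each of the 8 tumour libraries, as log2(normalized count + 1), grouped by role; circles are sensitive tumours 1 to 3, open diamonds sensitive tumour 4 and triangles resistant tumours. The open diamond lies within the range of the triangles for 28 of the 37 genes, a count whose share over all genes was not computed.

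Among the ligands, 2 rose and 3 fell of 10 tested, and the other 9 of the 19 were below the test's floor, which is 10 normalized counts in at least as many libraries as the smaller group holds. Wnt5a, a ligand best known for signalling without beta-catenin, had 898, 651 and 513 normalized counts for sensitive tumours 1 to 3, 2522, 2570.1, 1331 and 1989.8 for resistant tumours 1 to 4, and 1723 for sensitive tumour 4. All 4 resistant tumours were above sensitive tumours 1 to 3, and sensitive tumour 4 lay among the resistant ones. The log2 fold change was 1.60 ± 0.27 (adjusted p = 0.00251), and with all 8 tumours 1.26 ± 0.38 (adjusted p = 0.141). Wnt7b, an epidermal and follicle ligand, had 100.1, 63.6 and 62.9 normalized counts for sensitive tumours 1 to 3, 603, 174, 572 and 149 for resistant tumours 1 to 4, and 418 for sensitive tumour 4. Again every resistant tumour and sensitive tumour 4 were above sensitive tumours 1 to 3, at 2.05 ± 0.53 (adjusted p = 0.0158), and with all 8 tumours at 1.42 ± 0.70 (adjusted p = 0.232). The call without sensitive tumour 4 was lost on leaving out sensitive tumour 2 or 3 as well, where the adjusted p reached 0.0623.

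Wnt5b, the closest relative of Wnt5a, moved the other way, with 78.3, 97.5 and 106 normalized counts for sensitive tumours 1 to 3, 9.62, 7.41, 17.4 and 30.7 for resistant tumours 1 to 4, and 21.3 for sensitive tumour 4. Sensitive tumours 1 to 3 were the highest and did not overlap with the rest, and the log2 fold change was -2.64 ± 0.46 (adjusted p = 0.00299). All 8 tumours gave -2.12 ± 0.61 (adjusted p = 0.139). Wnt11, a ligand of cell movement and polarity, had 49.5, 72.1 and 59.6 normalized counts for sensitive tumours 1 to 3, 37.6, 26.7, 16.6 and 13.3 for resistant tumours 1 to 4, and 27.4 for sensitive tumour 4. The order was the same, at -1.41 ± 0.39 (adjusted p = 0.0207), but the call was lost without sensitive tumour 2 or 3, at an adjusted p of up to 0.0885. All 8 tumours gave -1.14 ± 0.44 (adjusted p = 0.166). Wnt10b, a beta-catenin ligand of the growing follicle, was low throughout, at 16.6 to 31.1 over sensitive tumours 1 to 3, 10.1 for sensitive tumour 4 and 3.70 to 12.7 over the resistant tumours. Its log2 fold change was -1.44 ± 0.47 (adjusted p = 0.0388), and 4 tumours each ended the call when left out: sensitive 1 and 2 and resistant 1 and 2. All 8 tumours gave -1.14 ± 0.52 (adjusted p = 0.207).

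The other tested ligands overlapped between the groups. Wnt4, a ligand of the interfollicular epidermis, had 472, 437 and 407 normalized counts for sensitive tumours 1 to 3, 221, 346, 604 and 225 for resistant tumours 1 to 4, and 356 for sensitive tumour 4. Resistant tumour 3 was the highest of all 8 and resistant tumour 1 the lowest, and the log2 fold change was -0.45 ± 0.34 (adjusted p = 0.308). Wnt9a had 189, 251 and 358 normalized counts for sensitive tumours 1 to 3, 297, 867, 549 and 292 for resistant tumours 1 to 4, and 451 for sensitive tumour 4. Its highest values were in resistant tumours 2 and 3, yet the lowest resistant tumour was below sensitive tumour 3. Wnt2b had 264, 223 and 229 normalized counts for sensitive tumours 1 to 3, 171, 251, 169.6 and 211 for resistant tumours 1 to 4, and 128 for sensitive tumour 4, with sensitive tumour 4 the lowest. Wnt6 had 149.6, 130.0 and 106 normalized counts for sensitive tumours 1 to 3, 52.5, 91.1, 117 and 59.3 for resistant tumours 1 to 4, and 81.1 for sensitive tumour 4. The highest resistant tumour was above sensitive tumour 3, and Wnt6 missed the threshold at -0.74 ± 0.31 (adjusted p = 0.0919). Wnt10a ranged over 27.2 to 139.5 across the 8 tumours. Of the 9 ligands not tested, Wnt3a reached the highest value, 47.2 in sensitive tumour 1, and 4 were below 10 in every tumour. Wnt8b, also not tested, was at 4.97 to 11.3 over sensitive tumours 1 to 3, 0 for sensitive tumour 4 and 0 to 2.96 over the resistant tumours.

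Of the receptors, 1 rose and 1 fell of 11 tested. Fzd3, a Frizzled known for polarity and axon guidance, had 509, 812 and 697 normalized counts for sensitive tumours 1 to 3, 193, 121, 206 and 111 for resistant tumours 1 to 4, and 46.6 for sensitive tumour 4. Sensitive tumours 1 to 3 stood clear of the other 5, and the log2 fold change was -2.11 ± 0.28 (adjusted p = 0.000847). With all 8 tumours it was -1.16 ± 0.82 (adjusted p = 0.374), and sensitive tumour 4 was lower than any resistant tumour. Fzd4, the receptor of norrin as well as of Wnt ligands, had 257, 342 and 275 normalized counts for sensitive tumours 1 to 3, 421, 556, 424 and 361 for resistant tumours 1 to 4, and 514 for sensitive tumour 4. All resistant tumours were above sensitive tumours 1 to 3, but by little, at 0.59 ± 0.19 (adjusted p = 0.0394). Total-read scaling and leaving out any of 6 further tumours, that is each but resistant tumour 4, ended this call, with adjusted p-values of up to 0.129 over the left-out tumours. All 8 tumours gave 0.38 ± 0.25 (adjusted p = 0.343).

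The abundant receptors overlapped between the groups. Lrp6, the co-receptor on which most beta-catenin signalling depends, had 4699.7, 5611 and 6361 normalized counts for sensitive tumours 1 to 3, 6096, 5756, 5357 and 5892 for resistant tumours 1 to 4, and 5112 for sensitive tumour 4. The spread was small in both groups and the log2 fold change was 0.06 ± 0.14 (adjusted p = 0.743). Its relative Lrp5 had 1000.3, 1441 and 1684 normalized counts for sensitive tumours 1 to 3, 1474, 1888, 1741 and 1298 for resistant tumours 1 to 4, and 2065 for sensitive tumour 4, with sensitive tumour 4 the highest. Fzd1, a receptor of the beta-catenin branch, had 4772, 4894 and 4377 normalized counts for sensitive tumours 1 to 3, 2030.3, 7265, 2772 and 2267 for resistant tumours 1 to 4, and 1332 for sensitive tumour 4. Resistant tumour 2 was the highest of all 8 and sensitive tumour 4 the lowest. Resistant tumours 1, 3 and 4 were below sensitive tumours 1 to 3, and the log2 fold change was -0.59 ± 0.39 (adjusted p = 0.26). With all 8 tumours it was -0.14 ± 0.52 (adjusted p = 0.875). Fzd7, a receptor of many stem cells, had 3513, 3789 and 4261 normalized counts for sensitive tumours 1 to 3, 2231, 1758, 2811 and 4393 for resistant tumours 1 to 4, and 2930.2 for sensitive tumour 4. Resistant tumour 4 was the highest and resistant tumour 2 the lowest. Fzd2 had 847, 877 and 1078 normalized counts for sensitive tumours 1 to 3, 719.6, 1079, 1045 and 880.5 for resistant tumours 1 to 4, and 750.0 for sensitive tumour 4. These 8 values lay close together, at -0.01 ± 0.18 (adjusted p = 0.956).

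Fzd6, which orients hair follicles in the skin, had 1075, 1118 and 1234 normalized counts for sensitive tumours 1 to 3, 1079, 1203, 967 and 540.0 for resistant tumours 1 to 4, and 763 for sensitive tumour 4. Resistant tumour 4 was the lowest, and the groups overlapped. Fzd5 had 780.4, 906 and 737 normalized counts for sensitive tumours 1 to 3, 1726, 605, 1249 and 1259 for resistant tumours 1 to 4, and 2226 for sensitive tumour 4. Sensitive tumour 4 was the highest, and resistant tumour 2 was below sensitive tumours 1 to 3. Fzd8, the closest relative of Fzd5, had 100.1, 131 and 229 normalized counts for sensitive tumours 1 to 3, 118, 121, 170.4 and 57.2 for resistant tumours 1 to 4, and 63.9 for sensitive tumour 4, again with overlap. Fzd10 had 78.3, 65.0 and 28.2 normalized counts for sensitive tumours 1 to 3, 63.8, 126, 140.3 and 126 for resistant tumours 1 to 4, and 90.2 for sensitive tumour 4. Resistant tumours 2 to 4 were above all sensitive tumours while resistant tumour 1 was not, and the log2 fold change was 1.04 ± 0.41 (adjusted p = 0.0738). Fzd9 was not tested and did not exceed 2.30 in any tumour.

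**Figure D2:**
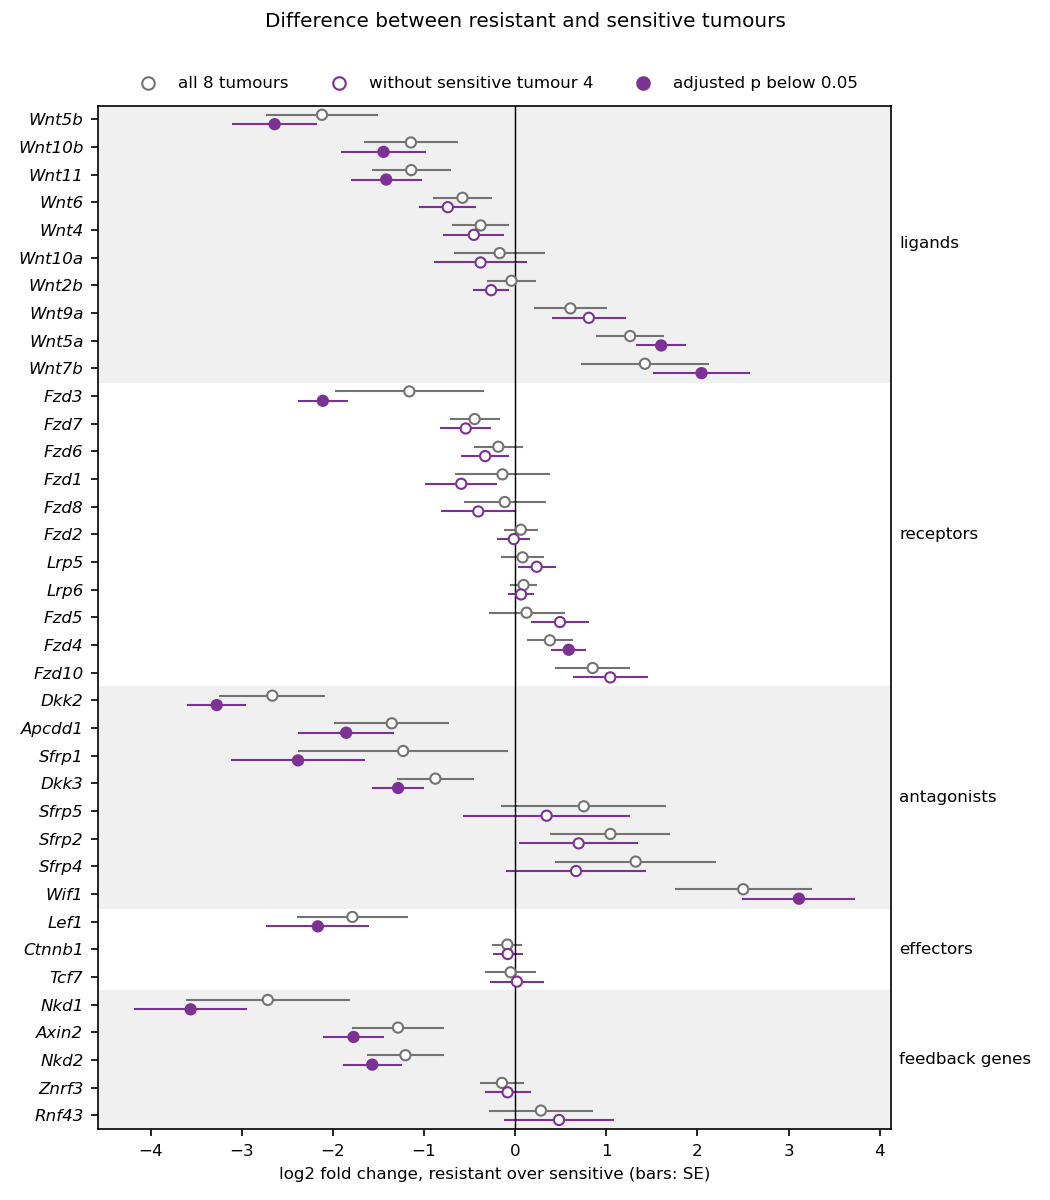
Log2 fold change of resistant over sensitive tumours for the 37 Wnt pathway genes tested with all 8 tumours, by role, with all 8 tumours (grey) and without sensitive tumour 4 (purple); bars are SE and filled points passed at an adjusted p under 0.05. None of the grey points is filled, and 16 of the purple points are, 12 to the left of 0 and 4 to the right.

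Among the antagonists, 1 rose and 4 fell of 9 tested. Dkk2, which binds the co-receptors and blocks them, had 2391, 1770.3 and 1512 normalized counts for sensitive tumours 1 to 3, 132, 160.0, 349.6 and 180.0 for resistant tumours 1 to 4, and 342 for sensitive tumour 4. Sensitive tumours 1 to 3 were above all others, and the log2 fold change was -3.27 ± 0.32 (adjusted p = 0.000274), 9.67-fold lower in the resistant tumours. With all 8 tumours it was -2.66 ± 0.58 (adjusted p = 0.127). Dkk3, a divergent member of the Dkk family, had 3325, 4845 and 4880.3 normalized counts for sensitive tumours 1 to 3, 1739, 1131, 1753 and 2774 for resistant tumours 1 to 4, and 1378 for sensitive tumour 4. The groups again did not overlap without sensitive tumour 4, at -1.28 ± 0.29 (adjusted p = 0.00836), and with all 8 tumours stood at -0.88 ± 0.43 (adjusted p = 0.23). Wif1, a secreted protein that binds Wnt ligands directly, had 387, 386 and 299.7 normalized counts for sensitive tumours 1 to 3, 1255, 7015, 6744 and 1519 for resistant tumours 1 to 4, and 1940.0 for sensitive tumour 4. Wif1 was the tested antagonist that went up: all 5 other tumours were above sensitive tumours 1 to 3, and resistant tumours 2 and 3 were the highest. The log2 fold change was 3.11 ± 0.62 (adjusted p = 0.00508), 8.66-fold higher in the resistant tumours. All 8 tumours gave 2.50 ± 0.75 (adjusted p = 0.142), or 5.67-fold.

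The secreted Frizzled-related proteins, which bind Wnt ligands with a domain like that of the receptors, did not move together. Sfrp1 had 1537, 4819 and 14379 normalized counts for sensitive tumours 1 to 3, 691, 421, 1361 and 1719.8 for resistant tumours 1 to 4, and 193 for sensitive tumour 4. Sensitive tumour 3 was the highest by far, and resistant tumour 4 was above sensitive tumour 1. Sfrp1 passed without sensitive tumour 4 although the groups overlapped, at -2.38 ± 0.73 (adjusted p = 0.0314), and leaving out sensitive tumour 2 or 3 or resistant tumour 1 or 2 ended the call, at an adjusted p of up to 0.0952. Sfrp1 stood with all 8 tumours at -1.23 ± 1.15 (adjusted p = 0.496). Sfrp2, an antagonist made by dermal fibroblasts, had 714, 1890.5 and 859 normalized counts for sensitive tumours 1 to 3, 2549.7, 481, 1795 and 3829.6 for resistant tumours 1 to 4, and 399 for sensitive tumour 4. Resistant tumours 1 and 4 were the highest, but resistant tumour 2 was among the lowest, at 0.70 ± 0.65 (adjusted p = 0.421). Sfrp4 had 201, 98.9 and 31.5 normalized counts for sensitive tumours 1 to 3, 63.8, 365, 66.6 and 226 for resistant tumours 1 to 4, and 13.2 for sensitive tumour 4. It varied widely within both groups. Sfrp5 ranged over 3.50 to 66.3 across the 8 tumours and did not pass.

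Apcdd1, a membrane protein of the hair follicle that binds Wnt ligands and Lrp5, had 1601, 1027 and 573 normalized counts for sensitive tumours 1 to 3, 191, 554, 399 and 126 for resistant tumours 1 to 4, and 244 for sensitive tumour 4. Sensitive tumours 1 to 3 were the highest, though sensitive tumour 3 was only just above resistant tumour 2, and the log2 fold change was -1.85 ± 0.53 (adjusted p = 0.0237). Leaving out sensitive tumour 1 or 2 or resistant tumour 1 ended the call, at an adjusted p of up to 0.0907. Apcdd1 stood with all 8 tumours at -1.35 ± 0.63 (adjusted p = 0.216). Notum, an enzyme that removes the lipid of Wnt ligands, entered the test only without sensitive tumour 4 and did not pass (adjusted p = 0.102). Dkk1 and Dkk4 were not tested. Dkk1 was at 0 to 1.15 over sensitive tumours 1 to 3, 26.4 for sensitive tumour 4 and 1.75 to 17.4 over the resistant tumours. Without sensitive tumour 4 these low values did not overlap, but the lowest resistant value is within what a count of 0 allows. Dkk4 did not exceed 5.65 in any tumour.

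Of the 3 effectors, Lef1 alone passed, and Ctnnb1 lay close together in all 8 tumours. Ctnnb1 had 7942, 8804 and 7819.7 normalized counts for sensitive tumours 1 to 3, 8059, 6668, 6895 and 9621 for resistant tumours 1 to 4, and 8269 for sensitive tumour 4. The log2 fold change was -0.08 ± 0.16 (adjusted p = 0.715). Lef1, the beta-catenin partner of hair progenitors, had 149.6, 149.8 and 159 normalized counts for sensitive tumours 1 to 3, 21.0, 29.6, 110.2 and 17.4 for resistant tumours 1 to 4, and 52.7 for sensitive tumour 4. Sensitive tumours 1 to 3 were nearly level with each other and above the rest, and resistant tumour 3 was the highest of the others. Lef1 fell by 2.17 ± 0.57 on the log2 scale (adjusted p = 0.0164), a call lost without sensitive tumour 2 (adjusted p = 0.0570), and all 8 tumours gave -1.79 ± 0.61 (adjusted p = 0.149). Tcf7, its relative, had 369, 355 and 217 normalized counts for sensitive tumours 1 to 3, 233, 496, 299.6 and 265 for resistant tumours 1 to 4, and 370.0 for sensitive tumour 4. The ranges of the groups overlapped, at 0.02 ± 0.30 (adjusted p = 0.966).

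Among the feedback and target genes, 3 of 5 tested fell and 0 rose. Axin2, the inducible axin that serves as a standard readout of beta-catenin signalling, had 683, 649.9 and 333 normalized counts for sensitive tumours 1 to 3, 135, 148, 247 and 114 for resistant tumours 1 to 4, and 136 for sensitive tumour 4. The values of sensitive tumours 1 to 3 were the highest, and sensitive tumour 4 lay among the resistant tumours. Axin2 fell by 1.77 ± 0.33 on the log2 scale (adjusted p = 0.00404), or 3.42-fold. Nkd1, which restrains the pathway at Dishevelled, had 264, 216 and 141 normalized counts for sensitive tumours 1 to 3, 10.5, 5.18, 35.7 and 31.4 for resistant tumours 1 to 4, and 18.2 for sensitive tumour 4. Its log2 fold change was -3.56 ± 0.62 (adjusted p = 0.00285), 11.8-fold lower in the resistant tumours, and no value of sensitive tumours 1 to 3 overlapped with the rest. Nkd2, its paralog, had 478, 390.0 and 288 normalized counts for sensitive tumours 1 to 3, 101, 81.5, 179.9 and 174 for resistant tumours 1 to 4, and 137 for sensitive tumour 4. The order was the same, at -1.57 ± 0.33 (adjusted p = 0.00614). With all 8 tumours these 3 genes stood at -1.29 ± 0.51, -2.71 ± 0.90 and -1.20 ± 0.42, with adjusted p-values of 0.172, 0.148 and 0.155.

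Rnf43 and Znrf3, the paired ubiquitin ligases that take Frizzled receptors off the cell surface, did not pass. Rnf43 had 139, 119 and 51.3 normalized counts for sensitive tumours 1 to 3, 238, 42.2, 201 and 152 for resistant tumours 1 to 4, and 165 for sensitive tumour 4. Resistant tumour 1 was the highest and resistant tumour 2 the lowest. Znrf3 had 1085, 757 and 724 normalized counts for sensitive tumours 1 to 3, 774, 691, 1205 and 617 for resistant tumours 1 to 4, and 999 for sensitive tumour 4. The groups overlapped throughout, at -0.08 ± 0.25 (adjusted p = 0.816). Sp5, a transcription factor induced by Wnt ligands, was listed above 0 in 1 tumour, at 0.793 in resistant tumour 3.

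The rest of the pathway was read from a list of 69 further genes, of which 63 were tested in the tumours. With all 8 tumours 0 passed with limma and 0 with edgeR, 15 had an unadjusted p under 0.05, and 10 passed with DESeq2, or 15.9%, beside 10.8% of all genes. Without sensitive tumour 4, 10 rose and 14 fell, or 38.1% together, beside 40.0% of all genes. By smallest p the higher were Myc, a growth regulator and Wnt target, at 1.23 ± 0.18, the cyclin Ccnd1 at 2.38 ± 0.36, the decoy receptor Bambi at 1.37 ± 0.26 and the antagonist Sostdc1 at 1.91 ± 0.37, all as log2 fold changes. The lower were the co-repressor Tle2 at -2.03 ± 0.24, the beta-catenin scaffold Apc2 at -2.16 ± 0.29, the R-spondin receptor Lgr5 at -1.85 ± 0.29 and the Dishevelled protein Dvl3 at -1.67 ± 0.29. All 8 tumours together gave 0.93 to 1.73 for the 4 higher and -1.47 to -1.16 for the 4 lower. The median log2 fold change over the 63 was -0.10, beside 0.02 over all genes.

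CCG-1423 changed nearly every expressed Wnt pathway gene in ASZ001 cells, up and down alike. Wnt4, the ligand with the largest fall, dropped 6.54-fold, while Wnt7a rose 12.8-fold and the target Axin2 5.06-fold; Ctnnb1 itself fell 2.94-fold. Of the 51 genes 32 were tested, and 29 passed, 14 higher and 15 lower. This is 90.6% of the tested members beside 85.3% of all 12775 tested genes (42.8% higher, 42.6% lower), so a pass alone sets no member apart. At least 2-fold changes passed in 12, 6 in each direction, beside 26.9% of all genes (11.7% higher, 15.3% lower). Markers moved too: all 8 basal keratinocyte markers fell, from a summed 1381750.0 to 1412070.0 with vehicle to 312916 to 325224, and their part in the results was not tested. The genes of the T cell, B cell, skeletal muscle and adipocyte lists were each below 10 in every cell library. In the cell paragraphs a log2 fold change is the first-named group over the second, ± SE, from the fit of all 9 libraries.

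**Figure D3:**
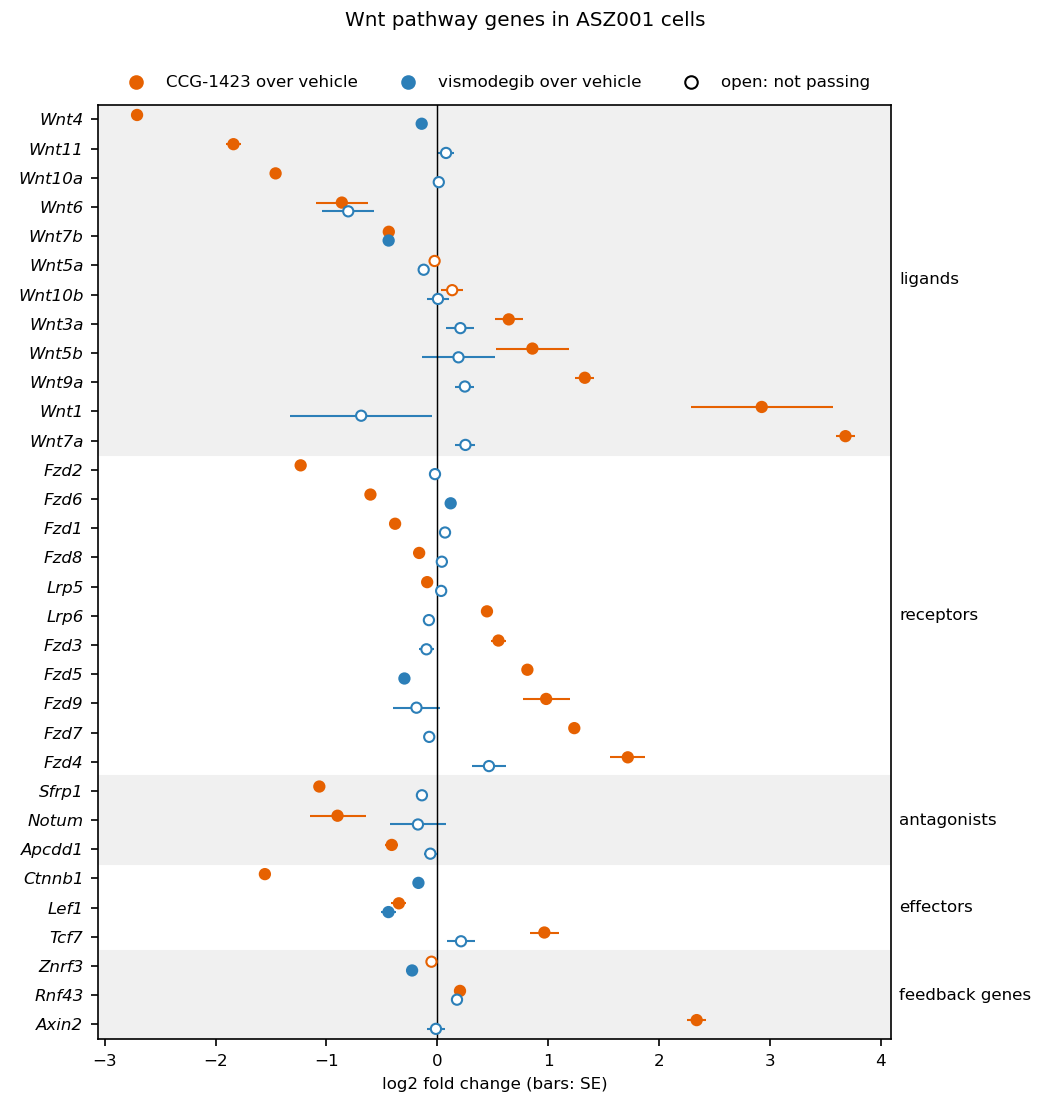
Log2 fold change over vehicle for the 32 tested Wnt pathway genes in ASZ001 cells, by role, with CCG-1423 (orange) and vismodegib (blue); bars are SE, filled points passed at an adjusted p under 0.05 and open points did not. The orange points run from -2.71 for Wnt4 to 3.68 for Wnt7a and the blue ones from -0.80 for Wnt6 to 0.47 for Fzd4; both comparisons share the vehicle libraries.

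Among the ligands 5 rose and 5 fell of 12 tested. Wnt4 had 18183, 18374 and 18782 normalized counts with vehicle, 2852, 2815 and 2794 with CCG-1423 and 16732, 16908 and 16538 with vismodegib. The CCG-1423 libraries lay far below the other 6, and the log2 fold change over vehicle was -2.71 ± 0.03 (adjusted p = 4.48e-19). Wnt10a, a ligand of tooth, hair and sweat gland development, had 3891, 3979 and 3933 normalized counts with vehicle, 1509.7, 1427 and 1358 with CCG-1423 and 3903, 3985 and 4024 with vismodegib. CCG-1423 lowered it by 1.46 ± 0.04 on the log2 scale (adjusted p = 8.76e-15), and the vismodegib values overlapped with those of vehicle. Wnt11 had 637, 619 and 595 normalized counts with vehicle, 179, 177 and 160.4 with CCG-1423 and 632, 628 and 698 with vismodegib. It fell by 1.84 ± 0.07 on the log2 scale with CCG-1423 (adjusted p = 7.04e-13). Wnt7b had 7377, 7265 and 7525 normalized counts with vehicle, 5409, 5455 and 5499 with CCG-1423 and 5291, 5527 and 5531 with vismodegib. Both compounds stood below vehicle and overlapped with each other, and CCG-1423 gave -0.44 ± 0.03 (adjusted p = 8.00e-10). Wnt6 had 56.4, 61.7 and 70.2 normalized counts with vehicle and 22.3, 45.9 and 38.0 with CCG-1423. It was lower in all 3 CCG-1423 libraries, at -0.86 ± 0.23 (adjusted p = 0.0029).

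Of the ligands that rose, Wnt7a, known for limb patterning and for synapses, had 87.4, 97.9 and 93.9 normalized counts with vehicle, 1073, 1255 and 1299.9 with CCG-1423 and 112, 114 and 107 with vismodegib. All 3 CCG-1423 libraries stood far above the other 6, which lay between 87.4 and 114, and the log2 fold change was 3.68 ± 0.09 (adjusted p = 4.92e-15). Wnt9a had 253, 279 and 231 normalized counts with vehicle, 572, 698 and 654 with CCG-1423 and 302, 299.7 and 302 with vismodegib. CCG-1423 raised it by 1.33 ± 0.08 on the log2 scale (adjusted p = 4.72e-10). Wnt3a, a strong activator of beta-catenin, had 141, 159.6 and 128 normalized counts with vehicle, 181, 254 and 241 with CCG-1423 and 170.0, 153 and 172 with vismodegib. The CCG-1423 libraries were the highest, though the lowest of them was close to the highest vismodegib library, at 0.64 ± 0.13 (adjusted p = 0.000212). Wnt1 was at 0 to 4.90 with vehicle, near the limit that a count of 0 allows, and at 18.2 to 28.7 with CCG-1423 (adjusted p = 0.000527). Wnt5b was low too, at 5.66 to 7.35 with vehicle and 10.2 to 15.6 with CCG-1423 (adjusted p = 0.0249). That call was lost with DESeq2 (adjusted p = 0.103), without vehicle replicate 3 (0.0656) and without CCG-1423 replicate 1 (0.105).

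Wnt5a and Wnt10b did not pass with CCG-1423. Wnt5a had 973, 1028 and 948 normalized counts with vehicle, 1016, 941 and 943 with CCG-1423 and 905, 902 and 899 with vismodegib. The vehicle and CCG-1423 values overlapped, at -0.02 ± 0.05 (adjusted p = 0.633). Wnt10b had 156, 149 and 138 normalized counts with vehicle, 156, 161 and 169 with CCG-1423 and 148, 159.5 and 138 with vismodegib, at 0.13 ± 0.10 (adjusted p = 0.214). Every CCG-1423 value of Wnt10b was above the highest vehicle value, though by little.

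**Figure D4:**
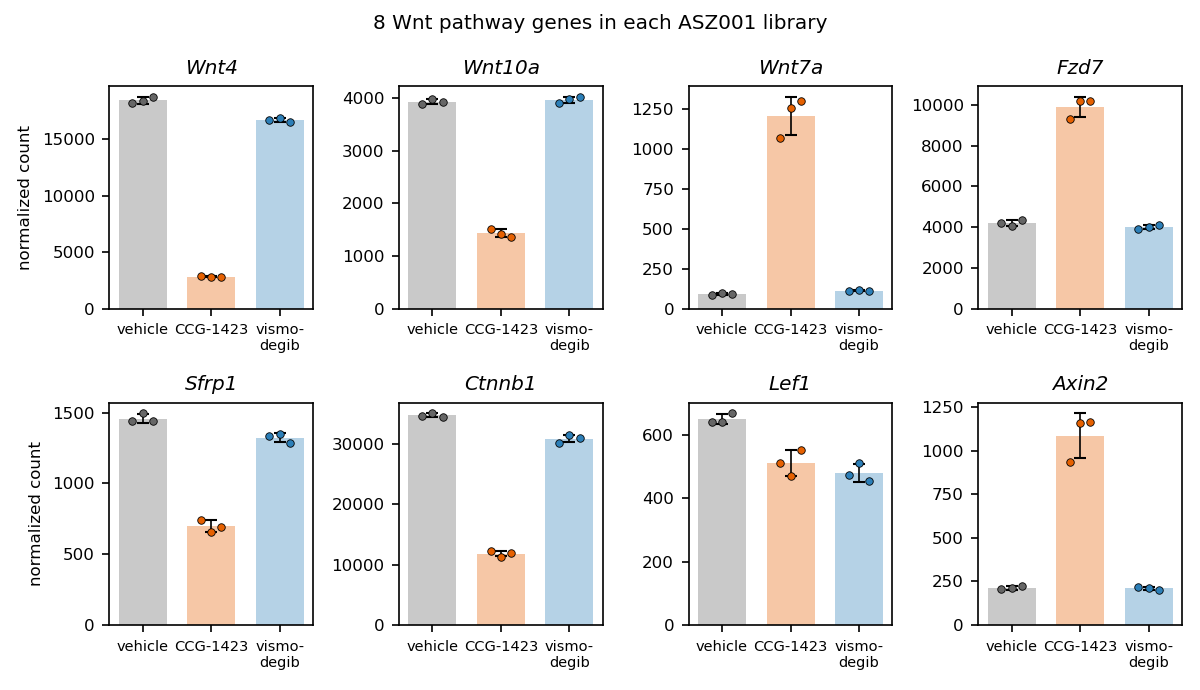
Normalized counts of 8 Wnt pathway genes in each ASZ001 library, with 1 panel per gene; points are libraries, bars group means and error bars SD (n = 3 per group). Wnt4, Wnt10a, Sfrp1 and Ctnnb1 are lowest with CCG-1423, Wnt7a, Fzd7 and Axin2 highest, and Lef1 is lower with both compounds than with vehicle.

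All 11 tested receptors passed, 6 higher and 5 lower. Fzd7 had 4213, 4073 and 4332 normalized counts with vehicle, 9332, 10206 and 10196 with CCG-1423 and 3904, 3999 and 4089.5 with vismodegib. The CCG-1423 libraries were above the other 6, at 1.24 ± 0.04 (adjusted p = 6.54e-14). Fzd4 had 53.1, 49.0 and 53.2 normalized counts with vehicle, 185, 185 and 149 with CCG-1423 and 82.8, 56.1 and 79.7 with vismodegib. Here too CCG-1423 was the highest group, at 1.72 ± 0.16 (adjusted p = 4.09e-08). Fzd5 had 1336, 1247 and 1306 normalized counts with vehicle, 2266, 2398 and 2172 with CCG-1423 and 1052, 1041 and 1071 with vismodegib. It was highest with CCG-1423 and lowest with vismodegib, and CCG-1423 over vehicle gave 0.81 ± 0.04 (adjusted p = 5.62e-11). Fzd3 had 393, 357 and 368 normalized counts with vehicle, 567, 525 and 546 with CCG-1423 and 360.1, 326 and 358 with vismodegib. It rose by 0.55 ± 0.07 on the log2 scale (adjusted p = 1.34e-06). Fzd9 had 25.3, 20.2 and 29.4 normalized counts with vehicle, 52.5, 56.2 and 41.7 with CCG-1423 and 20.1, 20.3 and 24.5 with vismodegib, all low values, and CCG-1423 gave 0.98 ± 0.21 (adjusted p = 0.000496).

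Of the receptors that fell, Fzd2 moved most. Fzd2 had 1569, 1524 and 1578 normalized counts with vehicle, 653, 680.1 and 653 with CCG-1423 and 1472, 1550.0 and 1583 with vismodegib. No CCG-1423 value came near the other groups, and the log2 fold change was -1.23 ± 0.04 (adjusted p = 2.46e-13). Fzd6 had 13120.3, 13004 and 12670.3 normalized counts with vehicle, 8435, 8503 and 8591 with CCG-1423 and 13851, 14142 and 14174 with vismodegib. It fell with CCG-1423 by 0.60 ± 0.03 on the log2 scale (adjusted p = 6.05e-12). Fzd1 had 5583, 5645 and 5684 normalized counts with vehicle, 4427, 4393 and 4169.6 with CCG-1423 and 5678, 6033 and 6041 with vismodegib. The CCG-1423 values were again the lowest, at -0.38 ± 0.03 (adjusted p = 2.58e-08). Fzd8 had 821, 738 and 757 normalized counts with vehicle, 670.5, 703 and 692 with CCG-1423 and 771, 795 and 814 with vismodegib. Its change of -0.16 ± 0.05 (adjusted p = 0.00892) was lost without vehicle replicate 1 (adjusted p = 0.0639) and with total-read scaling without Rn45s, the ribosomal RNA precursor (0.0873). Fzd10 was listed at 0 in all 9 libraries.

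The co-receptors parted. Lrp6 had 6586, 6696 and 7185 normalized counts with vehicle, 9634, 9272 and 9001 with CCG-1423 and 6536, 6345 and 6523 with vismodegib. It rose with CCG-1423 by 0.45 ± 0.04 on the log2 scale (adjusted p = 8.91e-09), with no overlap. Lrp5 had 4392, 4378 and 4629 normalized counts with vehicle, 4133, 4241 and 4197 with CCG-1423 and 4563, 4549 and 4608 with vismodegib. Its fall of 0.09 ± 0.03 on the log2 scale (adjusted p = 0.0108) was lost with total-read scaling (adjusted p = 0.113, and 0.399 without Rn45s) and without vehicle replicate 3 (0.0765).

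Only 3 of the 11 antagonists were tested in the cells, and all 3 fell with CCG-1423. Sfrp1 had 1441, 1497 and 1438 normalized counts with vehicle, 742, 657 and 694 with CCG-1423 and 1334, 1352 and 1289 with vismodegib. It was lowest in the 3 CCG-1423 libraries, at -1.06 ± 0.05 (adjusted p = 7.02e-12). Apcdd1 had 467, 471 and 479.9 normalized counts with vehicle, 346, 362 and 358 with CCG-1423 and 449.6, 454 and 454 with vismodegib. The fall was smaller, at -0.41 ± 0.06 (adjusted p = 6.01e-06). Notum was at 24.5 to 28.3 with vehicle and 10.1 to 18.5 with CCG-1423, at -0.90 ± 0.25 (adjusted p = 0.00373). Of the other 8, 5 were listed at 0 in all 9 libraries, and none exceeded 4.47.

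The 3 effectors all passed with CCG-1423. Ctnnb1 had 34671, 35138 and 34511 normalized counts with vehicle, 12237, 11332 and 11929 with CCG-1423 and 30238, 31468 and 30995 with vismodegib. The CCG-1423 values were the lowest by far, at -1.56 ± 0.03 (adjusted p = 9.45e-16). Tcf7 had 74.3, 77.7 and 58.9 normalized counts with vehicle, 139, 133 and 140.0 with CCG-1423 and 81.6, 84.1 and 77.7 with vismodegib. It rose by 0.97 ± 0.13 on the log2 scale (adjusted p = 3.72e-06). Lef1 had 641, 639 and 668 normalized counts with vehicle, 512, 471 and 551 with CCG-1423 and 472, 509.6 and 454 with vismodegib. It was lower in every library of either compound than in any vehicle library, and CCG-1423 gave -0.35 ± 0.07 (adjusted p = 0.000168).

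Of the feedback genes, Axin2 rose while Znrf3 did not pass. Axin2 had 205, 211 and 223 normalized counts with vehicle, 936, 1160.3 and 1163 with CCG-1423 and 217, 214 and 202 with vismodegib. All 3 CCG-1423 values were far above the other 6, which did not exceed 223, and the log2 fold change was 2.34 ± 0.08 (adjusted p = 4.18e-13). Rnf43 had 771, 709 and 714 normalized counts with vehicle, 789, 838 and 904 with CCG-1423 and 853, 806 and 821 with vismodegib. The vehicle values were the lowest, and CCG-1423 gave 0.20 ± 0.06 (adjusted p = 0.00363). Znrf3 had 1647, 1590.0 and 1667 normalized counts with vehicle, 1534, 1677 and 1521 with CCG-1423 and 1391, 1375 and 1421 with vismodegib. Vehicle and CCG-1423 overlapped, at -0.05 ± 0.04 (adjusted p = 0.259). Nkd1, Nkd2 and Sp5 did not exceed 4.83 in any cell library.

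Vismodegib moved fewer Wnt pathway genes and by far less. Of the 32 tested, 7 passed, 1 higher and 6 lower, which is 21.9% beside 5.5% of all 12775 tested genes (1.58% higher, 3.92% lower). None changed 2-fold, beside 0.274% of all genes that did. Of the Hedgehog targets, Gli1 was at 1100.1 to 1304 with vehicle and 229 to 272 with vismodegib, and Ptch1 at 305 to 332 and 268 to 289.7. The ligand Wnt7b, whose values are given above, fell by 0.44 ± 0.03 on the log2 scale (adjusted p = 1.71e-07), with no overlap between the groups. Lef1 fell by 0.44 ± 0.07 (adjusted p = 0.000858), likewise without overlap. Fzd5 fell by 0.30 ± 0.04 (adjusted p = 0.000648) and Znrf3 by 0.23 ± 0.04 (adjusted p = 0.00473). Ctnnb1 stood at -0.17 ± 0.03 (adjusted p = 0.00514) and Wnt4 at -0.14 ± 0.03 (adjusted p = 0.00495), both small and both with every vismodegib library below every vehicle library. Fzd6, at 0.12 ± 0.03 (adjusted p = 0.0154), was the gene that rose. Axin2, at -0.01 ± 0.08 (adjusted p = 0.963), overlapped between the groups. Wnt6, at -0.80 ± 0.23, missed the threshold with limma (adjusted p = 0.061) and passed with edgeR (0.0338) and DESeq2 (0.0456).

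Some of these calls depended on the scaling. Rn45s took 5.81 to 6.70% of the reads with vehicle, 6.62 to 10.4% with CCG-1423 and 1.39 to 1.58% with vismodegib. When libraries were scaled to equal totals of reads, the median of all genes moved by 0.08, and 12 members passed, 7 higher and 5 lower, beside 25.3% of all genes (22.9% higher, 2.4% lower). Wnt4 and Ctnnb1 then lost their calls (adjusted p = 0.131 and 0.0685), while Fzd1, Fzd4, Lrp5, Rnf43, Wnt7a and Wnt9a passed as higher and Wnt6 as lower. The calls of Wnt7b, Lef1, Fzd5, Znrf3 and Fzd6 held. With the same scaling but Rn45s left out of the totals, the 7 members of the deposited scaling passed again, 1 higher and 6 lower, beside 5.22% of all genes. Fzd6 lost its call on leaving out vehicle replicate 2 or 3 or vismodegib replicate 2 or 3, with adjusted p-values of 0.0658 to 0.103. Both Fzd6 and Ctnnb1 lost theirs without the variance trend (0.0683 and 0.0555).

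Set directly against each other, CCG-1423 and vismodegib differed in 25 of the 32 genes, 13 higher and 12 lower with CCG-1423, beside 84.8% of all genes (42.4% in each direction). Doses and times are not given, so the compounds cannot be matched for either. The largest differences were in Wnt7a at 3.43 ± 0.09 (adjusted p = 1.05e-14) and Wnt4 at -2.57 ± 0.03 (adjusted p = 9.89e-19), among genes with a mean of at least 30 in a group. Axin2 was higher with CCG-1423 by 2.35 ± 0.08 (adjusted p = 3.92e-13). Fzd5, which rose with CCG-1423 and fell with vismodegib, differed by 1.11 ± 0.04 (adjusted p = 1.22e-12), and Fzd6, which did the reverse, by -0.72 ± 0.03 (adjusted p = 6.63e-13). No difference was detected for Wnt7b, at 0.00 ± 0.03 (adjusted p = 0.964), or Lef1, at 0.09 ± 0.07 (adjusted p = 0.199), which fell with both compounds. Wnt5a, Wnt5b, Wnt6, Wnt10b and Rnf43 did not pass either.

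In the list of 69 further pathway genes, 54 were tested in the cells. CCG-1423 raised 18 and lowered 28 of them against vehicle, or 85.2% together, beside 85.3% of all genes, with a median log2 fold change of -0.14 beside 0.00 over all genes. By smallest p the higher were the scaffold Axin1 at 1.21 ± 0.04, Myc at 1.09 ± 0.03, the Dishevelled protein Dvl1 at 0.95 ± 0.03 and the co-repressor Tle1 at 0.91 ± 0.03. The lower were Sostdc1 at -4.69 ± 0.04, the R-spondin receptor Lgr4 at -1.71 ± 0.03, Wls, which carries Wnt ligands to the cell surface, at -0.91 ± 0.03, and Bambi at -2.13 ± 0.07. Vismodegib raised 1, Tle1 at 0.14 ± 0.03, and lowered 6, together 7 of the 54, beside 5.5% of all genes; the lower were, by smallest p, Ccnd1 at -0.53 ± 0.06, the progenitor factor Sox9 at -0.26 ± 0.04, the tankyrase Tnks2 at -0.15 ± 0.03 and Lgr4 at -0.13 ± 0.03. Between the compounds 17 were higher and 26 lower with CCG-1423, or 79.6% together, beside 84.8% of all genes, led by Myc at 1.04 ± 0.03 and Sostdc1 at -4.49 ± 0.04.

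Most members that could be tested in the cells could also be tested in the tumours. Of the 51 genes, 27 were tested in tumours and cells, 10 in the tumours alone (Dkk2, Dkk3, Fzd10, Nkd1, Nkd2, Sfrp2, Sfrp4, Sfrp5, Wif1 and Wnt2b), 5 in the cells alone (Fzd9, Notum, Wnt1, Wnt3a and Wnt7a) and 9 in neither. In the cells 9 members were listed at 0 in all 9 libraries, among them Dkk2, Sfrp2 and Sfrp4, and 19 were below 10 in every library. Of the 16 members that passed in the tumours without sensitive tumour 4, 9 also passed with CCG-1423 over vehicle, 5 in the same direction and 4 in the opposite one, out of 28 members tested in both fits. The 4 were Axin2, Fzd3 and Wnt5b, lower in resistant tumours and higher with CCG-1423, and Wnt7b, higher in resistant tumours and lower with CCG-1423. The 5 were Apcdd1, Lef1, Sfrp1 and Wnt11, lower in both, and Fzd4, higher in both. The share in opposite directions was 44.4% of these 9 beside 39.8% of the 4141 genes of all that passed in both. In the fit of all 8 tumours 0 of the 9 passed with limma or edgeR, and Axin2 and Wnt5b did with DESeq2.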

How the data were processed

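RNA was measured in 8 tumour and 9 cell libraries, grouped by their labels. The deposited signal values are normalized counts. For these the authors scaled each library's whole read counts by its own size factor: 100% of values became whole reads within 0.01 read when divided by each library's smallest step. Per the submitters' processing notes, TopHat, DESeq and mm9 were used, but their roles and versions are not stated there. For the gene counter, its strand setting and the annotation, the sources used here give nothing.

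Genes with at least 10 normalized counts in at least 4 tumour or 3 cell libraries (the smaller group's size where a library was left out) were tested on log2(normalized count + 1) with limma 3.58.1 (R 4.3.3) and its variance trend. Fold changes are on that scale, which understates changes of low genes. P-values are 2-sided and adjusted by Benjamini-Hochberg over all tested genes, at a threshold of 0.05. All 9 cell libraries shared 1 fit. The fit without sensitive tumour 4 stands beside that of all 8. The members, the pathway and marker lists and the tests were chosen with earlier results of these data known. Genes were named by level: values per library where a group's mean was at least 100, or at least 30 and the gene passed, otherwise ranges; of the further pathway genes up to 4 per direction by smallest p. Alternatives were a pseudocount of 0.5, no filter, no variance trend, edgeR 4.0.16 and DESeq2 1.42.0 on the recovered reads, total-read scaling, a replicate block and leaving out each library. Total-read scaling without Rn45s, and the repeats without sensitive tumour 4, were chosen after seeing the data. The limma and edgeR fits of all libraries were tested on simulated data. DESeq2 and the fit without sensitive tumour 4 were not. With 8 and 9 libraries, their number limits the precision.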

Additional observations from a re-analysis of the deposited data

Results flagged for a closer look

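In groups of 4 tumours, a library was set apart where its gap to the nearest of the others took most of the group's range on the log2 scale (Dixon's test at 95%). This was met in 7 of 74 groups of the tested members, where chance gives about 1 in 20 for normal values. Sensitive tumour 4 accounted for 4 of them: it was the lowest sensitive tumour for Fzd1, at 1332 normalized counts, for Fzd3, at 46.6, and for Lef1, at 52.7, and the highest for Wif1, at 1940.0. Resistant tumour 1 was the lowest resistant tumour for Fzd10, at 63.8, and for Sfrp5, at 3.50. Sensitive tumour 3 was the lowest sensitive tumour for Tcf7, at 217. The share over all genes was not computed, and sensitive tumour 4 differed from its group across all genes. The count therefore sets no member apart.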

How the results depend on the processing

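With all 8 tumours 0 members passed, and 7 did with DESeq2; on leaving out 1 tumour each the count ran from 0 to 16, the highest without sensitive tumour 4. Over all genes 17 passed, 0 with a pseudocount of 0.5, edgeR, total-read scaling with or without Rn45s, or the replicate block, 1630 with DESeq2, and 0 to 6184 on leaving out 1 tumour each. Without sensitive tumour 4 the count of 16 members ran from 9 to 17 and that of 6184 genes from 3859 to 6244 on leaving out 1 further tumour; both were lowest without sensitive tumour 2. There edgeR and DESeq2 called 4 higher and 12 lower, and total-read scaling 3 and 12 with a shift of the median of all genes by -0.14 (-0.11 with all 8); over all genes it called 2512 higher and 3721 lower, beside 3183 and 3001. With vismodegib 7 members passed, and 12 with total-read scaling; over all genes 703 passed, 3229 with total-read scaling (2923 higher, 306 lower, beside 202 and 501), 302 without the variance trend, and 325 to 498 on leaving out 1 library each. No named member changed sign while passing under any alternative run. The replicate number as a block gave 0, 29, 7 and 25 members in the tumours, CCG-1423, vismodegib and the comparison of both compounds, the same counts as without it. Deviations of same-numbered libraries from their group means correlated at -0.15 to 0.12 (tumours) and -0.04 to 0.04 (cells). For the tumours this cannot decide on pairing: the count was 0 already, the group means include sensitive tumour 4, and the block was not run without it. Where not stated, the cause of these moves was not tested. The 8111252 reads of the shallowest tumour limit genes near the floor.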
